A study of Canis lupus familiaris with 69 samples.

Results

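The tumour necrosis factor (TNF) superfamily is a set of small cytokines, the ligands, and of cell surface receptors that bind them. Its members on the canine array were taken by symbol: every gene whose symbol starts with TNFSF or TNFRSF and a number, together with TNF, LTA, LTB, FAS and FASLG, without CD40. This gave 30 of the 15947 genes measured, of which 13 were ligands and 17 receptors. Each of the 30 had 1 probe set with a single gene symbol, so no member rested on a choice between probe sets. TNFSF12 and TNFSF13 shared a probe set that carries both symbols and were not analysed here.

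Endometrium of 69 bitches was hybridised, 1 array per dog, in 4 diagnoses. The comparison group was 21 dogs with normal endometrium in early diestrus, the phase of the estrous cycle in which progesterone is high. The lesions were cystic endometrial hyperplasia (CEH, a thickened endometrium with cystic glands, 16 dogs), mucometra (a uterus filled with sterile mucoid fluid, 15 dogs) and pyometra (an infected uterus filled with pus, 17 dogs). The titles call the third group mucometra whereas a second label reads hemometra; the titles were followed. The tissue came from ovariohysterectomy, and the luminal exudate was excluded. Diagnosis was not the only difference between the groups: according to the methods, lesions were taken in more than 1 cycle phase, the healthy dogs were younger, and some dogs, mostly with pyometra, had earlier received progesterone-like drugs. The labels used here give none of these per dog, so a split of pyometra by treatment was not made. Diagnosis cannot be told apart from age, from cycle phase or from earlier treatment.

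Ligands of this family act mostly as trimers on the surface of a cell or after release from it. Some of the receptors (FAS, TNFRSF1A, TNFRSF21, TNFRSF25) carry a death domain that can start apoptosis, and most of the others recruit TRAF adaptors and switch on the transcription factor NF-kB. In mucosa the family carries both sides of an inflammatory response: TNF activates the vessel wall and draws in leukocytes, BAFF keeps B cells and plasma cells alive, FAS ligand and TRAIL kill cells, and a group of T cell receptors such as OX40 and 4-1BB give co-stimulation.

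Of the 30 members, 10 passed the threshold in at least 1 of 7 comparisons between diagnoses, and 20 passed it in none. A gene was called changed when it differed at least 2-fold and its p from limma, adjusted by Benjamini-Hochberg over all 15947 genes, was under 0.05. In pyometra versus diestrus 8 members were higher (TNF, TNFSF10, TNFSF13B, FAS, TNFRSF1B, TNFRSF12A, TNFRSF17 and TNFRSF21) and 1, TNFRSF19, was lower. These 9 were 30% of the family, where 9.98% of all genes were called (6.72% higher and 3.26% lower). In mucometra versus diestrus 3 members were higher and 1 lower (13.3%, against 6.35% of all genes, of which 3.56% higher and 2.8% lower). In CEH versus diestrus TNFRSF19 alone was called, as lower (3.33%, against 1.82% of all genes in either direction and 0.953% lower). The median log2 difference from diestrus over all 30 members, called and not called, was 0.56 in pyometra, 0.26 in mucometra and 0.13 in CEH. Over all genes it was -0.05, -0.01 and -0.01. All these comparisons share the diestrus dogs.

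**Figure D1:**
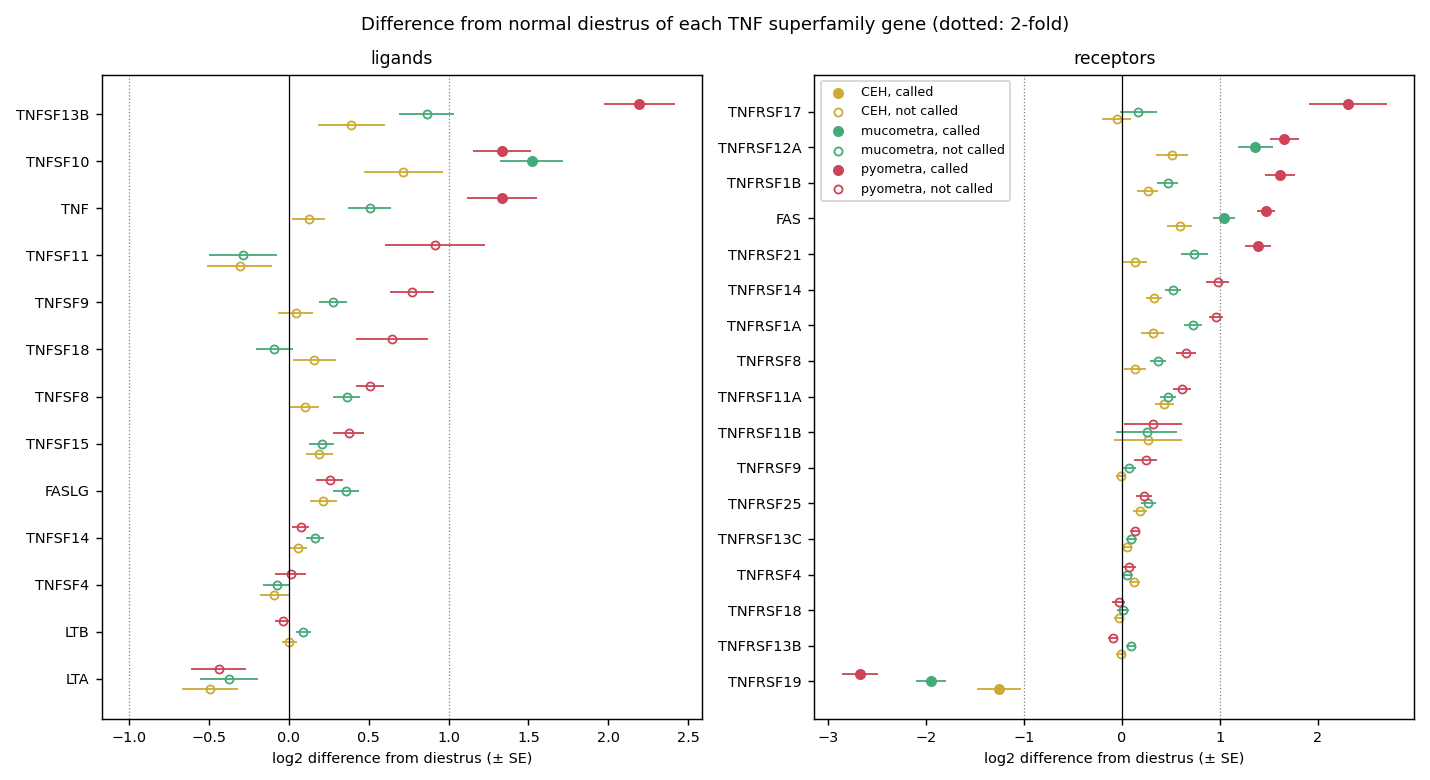
Log2 difference from normal diestrus (x axis, ± SE of the limma fit) for each of the 13 ligands and 17 receptors in CEH, mucometra and pyometra; filled points were called changed and dotted lines mark 2-fold. TNFRSF19 lies beyond 2-fold on the lower side in the 3 lesions, and TNFRSF17 and TNFSF13B have the highest values among receptors and ligands in pyometra.

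Set against the other 3 groups pooled (52 dogs), pyometra had 7 members higher and 1 lower (26.7%, against 5.84% of all genes, of which 4.37% higher and 1.47% lower). Against CEH it also had 7 higher and 1 lower (26.7%, against 5.95% of all genes, of which 4.28% higher and 1.67% lower). Against mucometra it had 4 higher (13.3%, against 3.65% of all genes in either direction and 2.82% higher). No member was called in mucometra versus CEH by limma, a comparison in which 0.144% of all genes were. At any fold 10 members (33.3%, against 20.8% of all genes) had an unadjusted p under 0.05 there, and 1 (3.33%, against 1.43% of all genes) an adjusted p under 0.05, TNFRSF21 at 0.61 ± 0.15 (SE, adjusted p = 0.0353). A moderated F test over the 4 diagnoses, with group means at least 2-fold apart, called the same 10 members (33.3%, against 12.9% of all genes).

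The values are log2 intensities, and array medians ran from 6.2 to 6.34. The number of arrays, not a depth, limits their precision. Markers of the tissue differed in level: KRT18 of epithelium was at 9.24 or above and ESR1, the estrogen receptor, at 8.46 or above in every dog. Others were dimmer: KRT8 of epithelium went down to 5.08 in CEH, and the uterine genes HOXA10 and HOXA11 to 5.99 and 5.02 in pyometra. Markers of leukocytes moved with the diagnosis. Each list was summarised per dog as the mean of its genes, each taken relative to its own mean over the 69 dogs. For 14 neutrophil genes this level was -0.44 to 3.20 in pyometra, against -0.93 to -0.28 in diestrus, -0.71 to 0.14 in CEH and -0.69 to 0.15 in mucometra, and 10 of the 14 were called higher in pyometra than in diestrus. For 15 genes of macrophages and monocytes the levels were -0.10 to 2.58, -1.31 to 0.21, -1.54 to 0.81 and -0.63 to 1.00 in the same order, with 14 of the 15 higher in pyometra. The T and NK cell list had 6 of 17 genes higher in pyometra than in diestrus and 4 of 17 in mucometra. Over all genes, 6.72% were called higher and 3.26% lower in pyometra versus diestrus. In mucometra versus diestrus these shares were 3.56% and 2.8%. The same shares apply to the marker lists given further below. An array value has no true zero, so none of these markers could be called absent. In bulk tissue, more cells of a type and more RNA per cell cannot be told apart, and the part of these shifts in the values of the family was not tested.

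TNF itself (probe set 14279402), the cytokine that heads the inflammatory cascade, rose in pyometra. Its log2 level was 4.34 to 5.89 (median 4.88) in diestrus, 4.71 to 5.53 (median 4.89) in CEH, 4.79 to 6.74 (median 5.32) in mucometra and 4.64 to 7.57 (median 6.38) in pyometra. At its low end pyometra overlapped the other groups, and at its high end it went beyond them, with 6 of 17 dogs above all 52 others and 10 above all 21 diestrus dogs. The mean was 6.23 ± 0.97 (SD, n = 17) in pyometra and 5.08 ± 0.42 (n = 52) elsewhere, a log2 difference of 1.15 ± 0.16 (SE, adjusted p = 2.69e-08). Against diestrus the rise was 2.52-fold (log2 difference 1.33 ± 0.22 SE, adjusted p = 2.52e-06) and against CEH 2.31-fold (log2 difference 1.21 ± 0.24 SE, adjusted p = 2e-04), whereas against mucometra it was 0.83 ± 0.26 (SE, adjusted p = 0.0148), under 2-fold. The highest mucometra dog stood at 6.74 while the next was at 5.77. In mucometra TNF lay 0.50 ± 0.13 (SE, adjusted p = 0.00182) above diestrus, under 2-fold as well.

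Of the 2 receptors of TNF, 1 passed the threshold in pyometra against each of the other groups and 1 in no comparison. TNFRSF1B (probe set 14327002), which lacks a death domain and is carried mainly by leukocytes and endothelium, read 5.9 to 7.19 (median 6.76) in diestrus, 6.62 to 7.65 (median 6.92) in CEH, 6.85 to 8.08 (median 7.19) in mucometra and 7.18 to 9.08 (median 8.52) in pyometra. The pyometra group stood nearly clear of diestrus, with 16 of 17 dogs above every diestrus dog. Of these, 12 lay above all 52 others, and the remaining pyometra dogs were within the range of mucometra. The log2 difference was 1.40 ± 0.12 (SE, adjusted p = 7.78e-15) against the other groups pooled, 1.61 ± 0.16 (SE, adjusted p = 4.01e-11) against diestrus and 1.14 ± 0.17 (SE, adjusted p = 4.43e-05) against mucometra. TNFRSF1A, the death domain receptor found on most cells, was higher in pyometra than in diestrus by 0.96 ± 0.07 (SE, adjusted p = 1.78e-13), just under 2-fold, and in mucometra by 0.72 ± 0.09 (SE, adjusted p = 4.43e-08). Its pyometra values, 8.61 to 9.49 (median 9.06), all lay above the highest diestrus value of 8.58. The neutrophil and macrophage levels given above moved in the same direction as TNF and TNFRSF1B across the 4 diagnoses. Of 12 endothelial genes, 5 were higher and 1 lower in pyometra than in diestrus, and their level was -0.52 to 0.93 in pyometra, against -0.94 to 0.19 in diestrus, -0.99 to 0.64 in CEH and -0.78 to 0.38 in mucometra. The part of these lists in the TNFRSF1B values was not tested.

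**Figure D2:**
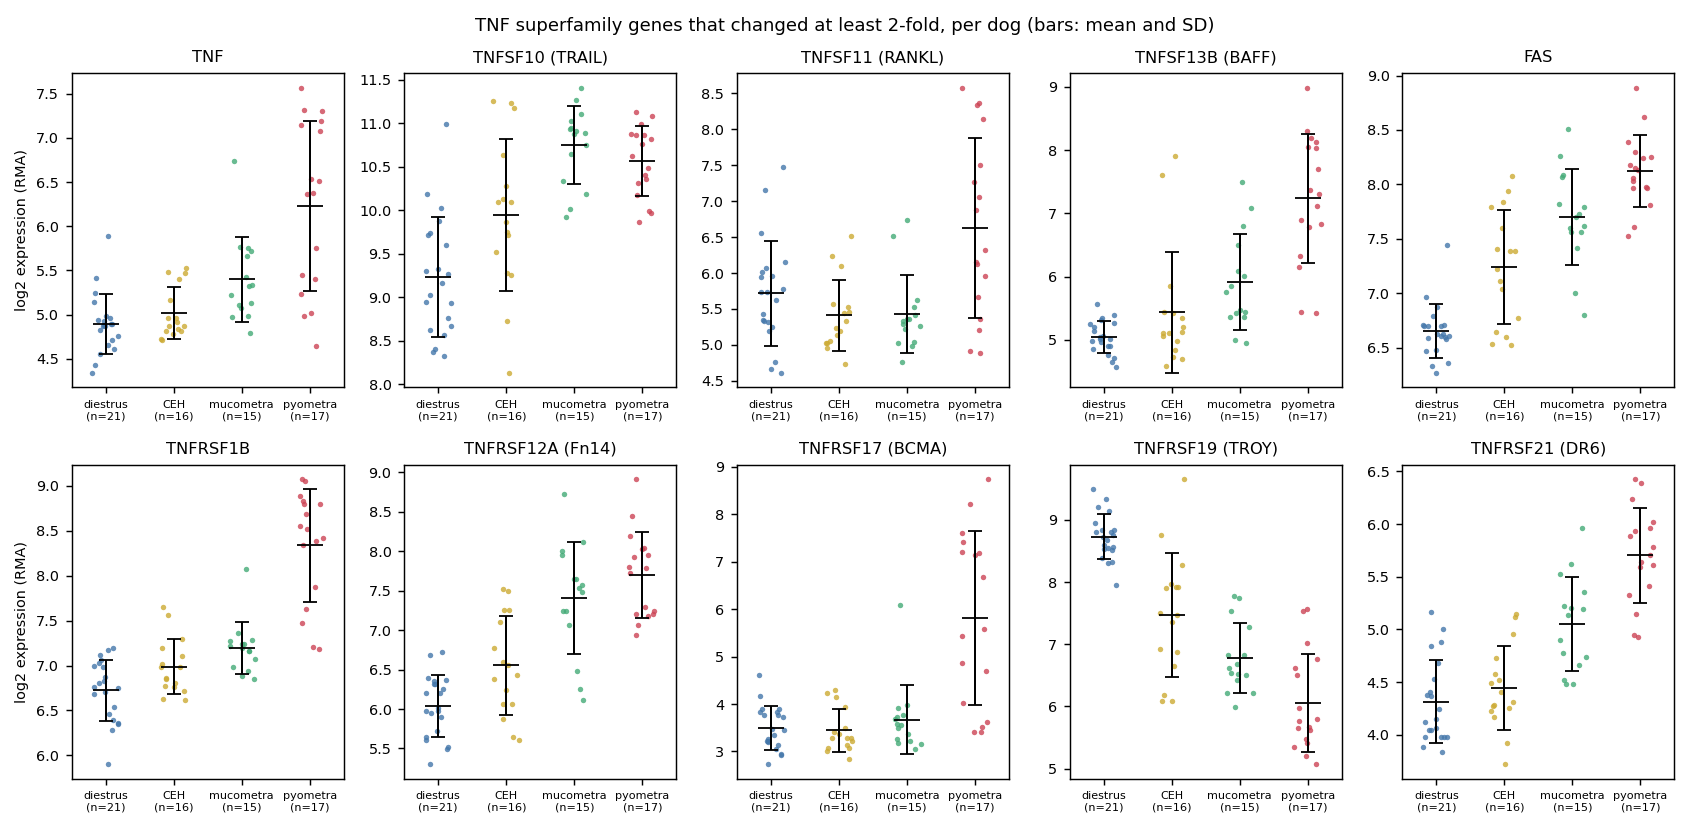
Log2 expression (y axis, RMA) of the 10 members called in at least 1 comparison, with 1 point per dog in each diagnosis (n = 21, 16, 15 and 17) and bars for mean and SD; each panel has its own scale. FAS, TNFRSF12A and TNFRSF19 in pyometra do not overlap diestrus, while TNF, TNFSF11 and TNFRSF17 spread widely within pyometra.

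Among the genes of cell death, the receptor FAS (probe set 14359662) had higher means from diestrus (6.66) through CEH (7.24) and mucometra (7.70) to pyometra (8.12), though the difference of mucometra from CEH did not pass (log2 difference 0.46 ± 0.17 SE, adjusted p = 0.121). It read 6.27 to 7.44 (median 6.63) in diestrus, 6.53 to 8.08 (median 7.30) in CEH, 6.8 to 8.51 (median 7.70) in mucometra and 7.53 to 8.89 (median 8.13) in pyometra. All 17 pyometra dogs and 12 of 15 mucometra dogs lay above every diestrus dog. FAS was 2.77-fold higher in pyometra than in diestrus (log2 difference 1.47 ± 0.09 SE, adjusted p = 1.3e-15) and 2.07-fold higher in mucometra (log2 difference 1.05 ± 0.11 SE, adjusted p = 2.54e-09); without mucometra dog 182 the latter fell to 0.99, just under 2-fold. In CEH the difference was 0.59 ± 0.13 (SE, adjusted p = 0.00101), under 2-fold. Against the other groups pooled FAS stood at 0.99 ± 0.15 (SE, adjusted p = 9.75e-08), a value that passed 2-fold, at 1.00 to 1.02, without any 1 of CEH dogs 13 and 29, mucometra dogs 91, 172, 182 and 219 and pyometra dogs 100, 185 and 214. FASLG, the ligand of FAS made by cytotoxic lymphocytes, differed by 0.26 ± 0.08 (SE, adjusted p = 0.0106) in pyometra and 0.36 ± 0.08 (SE, adjusted p = 0.000402) in mucometra versus diestrus.

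TNFSF10 (probe set 14393671), known as TRAIL, a death ligand that interferons induce, was high in both mucometra and pyometra. It read 8.32 to 10.99 (median 9.16) in diestrus, 8.13 to 11.25 (median 9.98) in CEH, 9.92 to 11.41 (median 10.89) in mucometra and 9.87 to 11.13 (median 10.62) in pyometra. Mucometra had the higher mean of the latter pair, 10.75 ± 0.44 against 10.56 ± 0.40 (SD), a difference that did not pass (log2 difference -0.19 ± 0.15 SE, adjusted p = 0.337). TNFSF10 was 2.87-fold higher in mucometra than in diestrus (log2 difference 1.52 ± 0.20 SE, adjusted p = 7.47e-08) and 2.52-fold higher in pyometra (log2 difference 1.33 ± 0.18 SE, adjusted p = 9.99e-08). The highest diestrus dog, at 10.99, lay above the medians of mucometra and pyometra, and CEH spread over the ranges of the other groups. The T and NK cell level, which ran -0.46 to 1.60 in pyometra, against -0.75 to 0.12 in diestrus, -0.67 to 0.73 in CEH and -0.54 to 1.25 in mucometra, had a higher mean in mucometra (0.26) and pyometra (0.55) than in diestrus (-0.47), and its part in FAS and TNFSF10 was not tested. The receptors of TRAIL were not analysed here.

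TNFRSF21 (probe set 14283821), known as DR6, is a death domain receptor which in mice restrains T and B cell responses. Its values were highest in pyometra and in between in mucometra. TNFRSF21 is a dim gene on this array, with a mean over all dogs of 4.85, at percentile 13.9 of the genes. Its folds are therefore taken from a low level. It read 3.84 to 5.17 (median 4.15) in diestrus, 3.72 to 5.15 (median 4.36) in CEH, 4.48 to 5.96 (median 5.14) in mucometra and 4.93 to 6.43 (median 5.71) in pyometra. In pyometra, 14 of 17 dogs lay above all diestrus dogs and the same number above all CEH dogs. The log2 difference was 1.39 ± 0.13 (SE, adjusted p = 4.14e-11) against diestrus, 1.26 ± 0.14 (SE, adjusted p = 1.65e-07) against CEH and 0.65 ± 0.15 (SE, adjusted p = 0.00174) against mucometra, the last under 2-fold. TNFRSF25, the death domain receptor of TL1A, differed by 0.23 ± 0.08 (SE, adjusted p = 0.0139) in pyometra versus diestrus.

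The largest rises of the family in pyometra versus diestrus were those of a ligand and a receptor of B lineage cells. TNFSF13B (probe set 14342513), known as BAFF, the survival factor of B cells that macrophages and neutrophils make, read 4.58 to 5.57 (median 5.02) in diestrus, 4.59 to 7.9 (median 5.12) in CEH, 4.96 to 7.5 (median 5.76) in mucometra and 5.42 to 8.99 (median 7.31) in pyometra. Of the 17 pyometra dogs 15 lay above every diestrus dog. In CEH the group was low except for dogs 133 and 171, at 7.9 and 7.61, which were at the level of pyometra, and the next CEH dog was at 5.85. TNFSF13B was 4.57-fold higher in pyometra than in diestrus (log2 difference 2.19 ± 0.22 SE, adjusted p = 1.2e-10), 2.51-fold higher than in mucometra (log2 difference 1.33 ± 0.31 SE, adjusted p = 0.00137) and 3.48-fold higher than in CEH (log2 difference 1.80 ± 0.33 SE, adjusted p = 7.17e-05). In mucometra it was above diestrus by 0.86 ± 0.17 (SE, adjusted p = 7.46e-05), under 2-fold.

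TNFRSF17 (probe set 14426739), known as BCMA, is a receptor of BAFF carried by plasma cells. It read 2.73 to 4.62 (median 3.45) in diestrus, 2.85 to 4.29 (median 3.29) in CEH, 3.05 to 6.09 (median 3.55) in mucometra and 3.4 to 8.75 (median 5.58) in pyometra. Pyometra held both low and high dogs. Of the 17, 12 lay above every diestrus dog and 8 above all 52 other dogs. The rest overlapped diestrus, and 4 of them were at 3.63 or below. Outside pyometra the only dog above 5 was mucometra dog 182, at 6.09. The mean in pyometra, 5.81 ± 1.83 (SD), exceeded that elsewhere, 3.53 ± 0.55, by 2.28 ± 0.28 (SE, adjusted p = 3.49e-10), a 4.84-fold rise. TNFRSF17 is a dim gene on this array, with a mean over all dogs of 4.09, at percentile 7.14 of the genes, so this fold is taken from a low level. The other receptors of BAFF, TNFRSF13B (TACI) and TNFRSF13C (the BAFF receptor of mature B cells), stayed between 5.49 and 6.32 and between 6.02 and 6.91 in all dogs, and neither reached a 2-fold difference in any comparison. A list of 13 other B and plasma cell genes had a level of -0.45 to 2.42 in pyometra, against -0.89 to -0.36 in diestrus, -0.88 to 0.36 in CEH and -0.46 to 1.57 in mucometra, with 9 of the 13 higher in pyometra than in diestrus, among them JCHAIN, the joining chain of secreted immunoglobulin, at 3.09 ± 0.31 (SE). Its part in the TNFRSF17 values was not tested.

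TNFSF11 (probe set 14343087), the RANK ligand, drives osteoclasts in bone and, in mice, acts downstream of progesterone in the mammary gland. It read 4.61 to 7.47 (median 5.73) in diestrus, 4.73 to 6.52 (median 5.28) in CEH, 4.76 to 6.74 (median 5.33) in mucometra and 4.89 to 8.58 (median 6.32) in pyometra. The pyometra group split widely, with 5 of 17 dogs above all 52 others and the lowest within the range of each other group. The log2 difference was 1.09 ± 0.22 (SE, adjusted p = 3.89e-05) against the other groups pooled, 1.20 ± 0.33 (SE, adjusted p = 0.0058) against mucometra and 1.22 ± 0.32 (SE, adjusted p = 0.00295) against CEH, and 0.91 ± 0.31 (SE, adjusted p = 0.0137) against diestrus, under 2-fold. The pooled difference dropped under 2-fold, to between 0.97 and 0.996, when any 1 of pyometra dogs 205, 217, 222 and 229 was left out. The difference from diestrus passed 2-fold without dog 207, 213 or 231, at 1.00 to 1.02. TNFRSF11A, the receptor RANK, was above diestrus by 0.61 ± 0.09 (SE, adjusted p = 5.3e-07) in pyometra, 0.47 ± 0.08 (SE, adjusted p = 1.21e-05) in mucometra and 0.43 ± 0.10 (SE, adjusted p = 0.00149) in CEH, each under 2-fold. TNFRSF11B, osteoprotegerin, the soluble decoy of RANK ligand, varied more within diestrus, 4.42 to 8.63 (median 5.21), than between groups, and its difference in pyometra versus diestrus was 0.32 ± 0.30 (SE, adjusted p = 0.387).

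TNFRSF12A (probe set 14427073), known as Fn14, is the receptor of TWEAK and is induced by growth factors and injury in epithelium and fibroblasts. It read 5.3 to 6.73 (median 6.01) in diestrus, 5.61 to 7.52 (median 6.50) in CEH, 6.11 to 8.73 (median 7.53) in mucometra and 6.94 to 8.92 (median 7.79) in pyometra. All 17 pyometra dogs and 12 of 15 mucometra dogs lay above every diestrus dog. It was 3.16-fold higher in pyometra (log2 difference 1.66 ± 0.15 SE, adjusted p = 6.08e-12) and 2.57-fold higher in mucometra (log2 difference 1.36 ± 0.18 SE, adjusted p = 1.04e-07) than in diestrus. Pyometra and mucometra overlapped over most of their range, and their difference was 0.30 ± 0.21 (SE, adjusted p = 0.29). CEH lay 0.51 ± 0.16 (SE, adjusted p = 0.0192) above diestrus, under 2-fold. Of 10 genes of stromal fibroblasts, 5 were higher in pyometra and 1 in mucometra than in diestrus, and their level was -0.24 to 0.90 in pyometra, against -1.17 to 0.13 in diestrus, -0.89 to 0.56 in CEH and -0.39 to 0.62 in mucometra, while the epithelial list is given with TNFRSF19. Their part in the TNFRSF12A values was not tested. With the sample number in the titles as a covariate, since it goes with the diagnosis, the difference of TNFRSF12A between pyometra and the other groups was 0.79 (adjusted p = 0.00306) in place of 1.11, and that of TNFRSF21 was 0.98 in place of 1.14, both then under 2-fold.

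TNFRSF19 (probe set 14355424), known as TROY, was the 1 member called lower, and it was lower in each lesion. TROY is a receptor without a death domain, known in mice from hair follicles and intestinal stem cells. It read 7.95 to 9.49 (median 8.73) in diestrus, 6.08 to 9.66 (median 7.49) in CEH, 5.99 to 7.78 (median 6.61) in mucometra and 5.07 to 7.57 (median 5.76) in pyometra. No pyometra or mucometra dog reached the lowest diestrus dog, and 12 of 16 CEH dogs lay below it too. CEH also held the highest TNFRSF19 value of all dogs, 9.66 in dog 155. TNFRSF19 was 2.39-fold lower in CEH (log2 difference -1.26 ± 0.23 SE, adjusted p = 0.000268), 3.86-fold lower in mucometra (log2 difference -1.95 ± 0.15 SE, adjusted p = 1.12e-11) and 6.37-fold lower in pyometra (log2 difference -2.67 ± 0.19 SE, adjusted p = 1.62e-14) than in diestrus. Among the lesions, pyometra was 2.67-fold below CEH (log2 difference -1.42 ± 0.30 SE, adjusted p = 0.00035), whereas its distance from mucometra was -0.72 ± 0.24 (SE, adjusted p = 0.0168), under 2-fold, and mucometra versus CEH was -0.69 ± 0.28 (SE, adjusted p = 0.155). Of 12 genes of simple epithelium, 3 were lower and 1 higher in pyometra than in diestrus, and their joint level was -1.16 to 0.69 in pyometra, against -0.14 to 1.15 in diestrus, -1.31 to 0.43 in CEH and -0.86 to 0.61 in mucometra. Of 7 endometrial genes, 3 were lower: MSX1, a transcription factor of the uterus, at -2.32 ± 0.17, FOXA2 of the glands at -1.25 ± 0.12 and ESR1 at -1.09 ± 0.22 (SE). Their part in the TNFRSF19 values was not tested.

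The remaining members kept within 2-fold in all 7 comparisons. Nearest to the threshold was TNFRSF14 (HVEM, the receptor of LIGHT), at 0.98 ± 0.12 (SE, adjusted p = 1.03e-08) in pyometra versus diestrus, which passed 2-fold, at 1.00 to 1.01, without any 1 of pyometra dogs 100, 198, 207, 214 and 228. TNFSF9, the ligand of 4-1BB, was 0.77 ± 0.14 (SE, adjusted p = 1.1e-05) above diestrus in pyometra, and TNFRSF8, the receptor CD30, 0.65 ± 0.10 (SE, adjusted p = 8.64e-07). TNFSF18, the GITR ligand, was 0.64 ± 0.22 (SE, adjusted p = 0.0147) above diestrus with 1 pyometra dog, 229, at 6.97 and the rest at 5.61 or below. Of the other co-stimulatory receptors of T cells, 3 did not pass at any fold in that comparison: TNFRSF4 (OX40) differed by 0.07 ± 0.07 (SE, adjusted p = 0.416), TNFRSF18 (GITR) by -0.03 ± 0.06 (SE, adjusted p = 0.688) and TNFRSF9 (4-1BB) by 0.24 ± 0.12 (SE, adjusted p = 0.078). The lymphotoxin LTB differed by -0.04 ± 0.05 (SE, adjusted p = 0.527) and its sister LTA by -0.44 ± 0.17 (SE, adjusted p = 0.0309), the latter being lower in pyometra. LTA was not particular to pyometra: it lay -0.49 ± 0.18 (SE, adjusted p = 0.0353) from diestrus in CEH. In mucometra it lay -0.37 ± 0.18 (SE, adjusted p = 0.0916) from diestrus. Pyometra differed from CEH by 0.05 ± 0.07 (SE, adjusted p = 0.558). Over the whole family, 20 members rose and 2 were lower in pyometra versus diestrus at an adjusted p under 0.05 and any fold (73.3%, against 51.3% of all genes). In mucometra versus diestrus 18 members were past that p at any fold (60%, against 47.1%). In CEH versus diestrus 8 members were past it at any fold (26.7%), a share near the 26.3% of all genes.

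TNF, LTA and LTB follow each other in the RefSeq gene order of the dog assembly UU_Cfam_GSD_1.0. TNF was higher in pyometra, LTB ranged only from 6.24 to 6.8 over all dogs, and LTA had its highest values in diestrus. TNFRSF4 and TNFRSF18 are likewise neighbours, as are TNFSF8 and TNFSF15 and also TNFSF4 and TNFSF18.

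Within pyometra the family did not rise to the same degree in each dog. Of the 7 members that were higher than in the other groups pooled, pyometra dogs 206, 222 and 229 exceeded all 52 other dogs in 5, and 1 dog did so in 4. A further 5 dogs exceeded them in 3 members and 4 dogs in 2. Dogs 100, 198, 207 and 214 did so in none. Even so, dog 214 had TNFSF13B at 7.71 and TNFRSF12A at 8.19, above every diestrus dog. The 7 members were taken from the comparison of these same dogs, and the mark was the highest of the other dogs. These counts are therefore a description only. The SD was widest in pyometra for 17 of the 30 members (56.7%), beside 44.7% of all genes. For TNFRSF17 it was 1.83 in pyometra against 0.46 in diestrus, and for TNFSF11 1.25 against 0.73. FAS and TNFSF10 behaved otherwise, with SDs of 0.33 and 0.40 in pyometra, below those of CEH at 0.52 and 0.88.

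**Figure D3:**
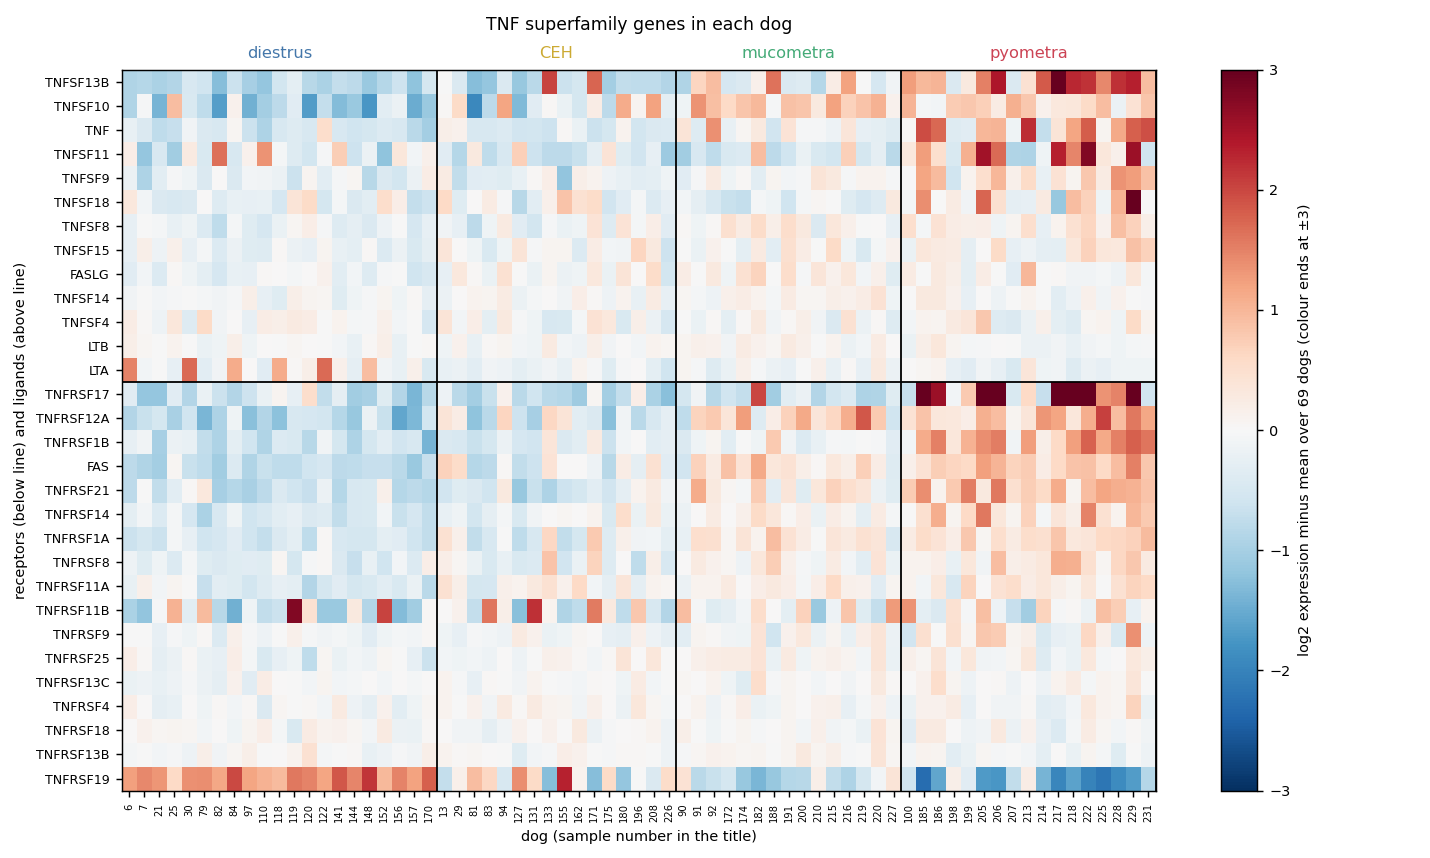
Log2 expression of each member (rows, ligands above the line and receptors below it) in each of the 69 dogs (columns, by diagnosis and sample number) minus its mean over all dogs; the colour scale ends at ±3. The pyometra columns range from dogs such as 198 and 207, which look like the other lesions in most rows, to dogs such as 222 and 229, which are high in many, and the TNFRSF19 row is high in diestrus and low in mucometra and pyometra.

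Other genes of the pathway were counted in the same fits. Of the pathway lists, the TNF-induced genes had the largest share called: 21 of 25 measured were higher in pyometra than in diestrus, where 6.72% of all genes were. In mucometra 9 of them were higher, where 3.56% of all genes were, and in CEH 3, where 0.865% were, and the median log2 difference of the list was 1.85 in pyometra, 0.76 in mucometra and 0.24 in CEH. Those called in CEH were PTGS2, VCAM1 and CCL2. PTGS2, which makes prostaglandins, stood at 5.20 ± 0.37 in pyometra versus diestrus, CXCL8, the neutrophil chemokine, at 4.57 ± 0.44, VCAM1, the leukocyte adhesion molecule of the vessel wall, at 4.03 ± 0.25 and CCL2, the monocyte chemokine, at 3.66 ± 0.33 (log2 ± SE). These genes answer to other signals than TNF too, and leukocytes make several of them. The list includes LTB, which was not called.

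Of 33 adaptors and kinases downstream of the receptors, 4 were higher in pyometra than in diestrus, where 6.72% of all genes were. All 4 are feedback regulators or NF-kB targets themselves: TNIP3 at 3.56 ± 0.36, TNFAIP3 (the inhibitor A20, which the TNF-induced list also holds, as it does BIRC3) at 2.38 ± 0.21, BIRC3 at 1.63 ± 0.18 and TNIP1 at 1.22 ± 0.17. TNIP3 and TNFAIP3 were also called in mucometra versus diestrus, at 1.88 ± 0.31 and 1.62 ± 0.19. Of 11 NF-kB subunits and inhibitors, NFKBIZ and BCL3 were higher in pyometra (2.09 ± 0.16 and 1.86 ± 0.14) and in mucometra (1.92 ± 0.18 and 1.04 ± 0.13). Both are atypical nuclear members of the inhibitor family, and whether they inhibited NF-kB here was not tested. Of 17 death receptor and apoptosis genes, 1 was called in pyometra, CASP8, the caspase next to FAS, at 1.73 ± 0.13, a share no higher than the 6.72% of all genes. In a list of 6 genes drawn up for the release and processing of ligands, 1 was called, LITAF, at 1.07 ± 0.15. LITAF is not itself an enzyme that releases ligands, and the count is too small to set against that share. Among 8 superfamily genes outside the symbol rule (CD27, CD70, CD40LG, EDA, EDAR, NGFR, LTBR and RELT) none was called in pyometra versus diestrus by limma, while 6 had an unadjusted and the same number an adjusted p under 0.05, from -0.60 for EDA to 0.61 for RELT. At that adjusted p and any fold 51.3% of all genes passed, and 8 genes are too few to set against that share. The median difference in pyometra versus diestrus was 0.18 over the adaptors, 0.35 over the NF-kB genes and 0.20 over the apoptosis genes, beside -0.05 over all genes.

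**Figure D4:**
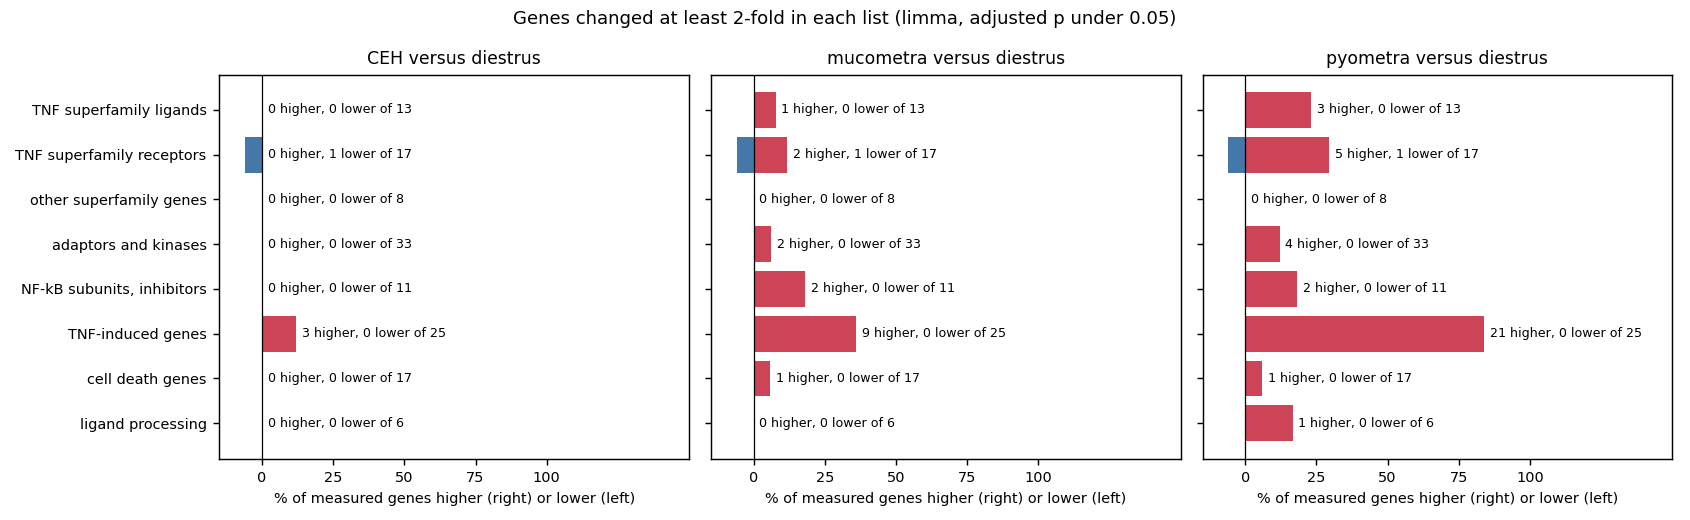
Percentage of the measured genes of each list (x axis) called higher (right) or lower (left) than in diestrus, for CEH, mucometra and pyometra, with the counts beside the bars. In pyometra the TNF-induced genes have 21 of 25 higher, against 3 of 13 ligands, 5 of 17 receptors and 4 of 33 adaptors and kinases of the family's pathway.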

How the data were processed

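Total RNA from the endometrium of 69 dogs was hybridised to an Affymetrix Canine Gene 1.0 ST array, which carries 32391 probe sets. The log2 values were used as deposited: the authors made them by RMA, which corrects background, sets all arrays to one distribution by quantiles and summarises probes into probe sets. Of the probe sets, 16545 carry 1 gene symbol in the platform annotation, 370 several and 15476 none; probe sets with 1 symbol were kept, and for a gene with several the one with the highest mean, which left 15947 genes. Groups follow the sample titles, and 0 columns of values were left out. Comparisons were fitted in limma 3.58.1 (R 4.3.3) with the groups compared only, p-values adjusted by Benjamini-Hochberg over all genes, at adjusted p under 0.05 and at least 2-fold. The code was tested on simulated data. The members and the pathway and marker lists were chosen with earlier results of these data known, so counts over them are descriptions. Members past the threshold in any comparison, and TNF, are named in full; others by range, level or identity, and of each list up to 4 called genes. EDA, RELT and the 3 genes called in CEH were picked after their values were seen. Nothing in the labels ties dogs to a batch. Alternatives were another variance model, 1 fit of all groups, a filter at a mean log2 of 5, the mean of a gene's probe sets, centring of arrays, array weights, the sample number as a covariate, leaving out the most alike pair of arrays and, chosen after seeing the data, leaving out each dog. Promoter sequences were not analysed here.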

Additional observations from a re-analysis of the deposited data

How the results depend on the processing

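The counts of members called stayed within 1.5 times of those given under every alternative run. With each dog left out in turn, a choice made after seeing the data, they ranged from 7 to 9 in pyometra versus the other groups pooled, 9 to 11 in pyometra versus diestrus and 3 to 4 in mucometra versus diestrus, and were 1 in CEH versus diestrus, 4 in pyometra versus mucometra, 8 in pyometra versus CEH and 0 in mucometra versus CEH throughout. The calls that changed were those of FAS, TNFSF11 and TNFRSF14, named with their dogs in the report. In pyometra versus the other groups pooled, FAS passed 2-fold with array weights (1.09) and without pyometra dog 100 and mucometra dog 216 (1.03), the most alike pair of arrays (r = 0.987 over all probe sets, where the median pair had 0.953), while TNFRSF12A (0.79) and TNFRSF21 (0.98) dropped under it with the sample number as a covariate. The filter at a mean log2 of 5 kept 23 of the 30 members, and TNFRSF17 and TNFRSF21 were among those it removed. Over all genes the 23 called in mucometra versus CEH became 63 in 1 fit of the 4 groups, 119 with array weights, 7 without dogs 100 and 216 and 1 with the sample number. No paired analysis was possible because each sample number belongs to 1 dog. Of the 30 members, 6 had a mean above that of the median gene, so most were read in the dimmer part of the array's range.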

Other observations

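LTA, one of the lymphotoxins, had its highest values in normal tissue. In the 21 diestrus dogs, 6 stood at 6.59 to 7.36 (dogs 30, 122, 6, 118, 84 and 148), and the other 15 at 5.83 or below. The highest value among the 48 dogs with a lesion was 6.02, so these 6 dogs exceeded all of them. In every lesion group the SD of LTA was at most 0.20, against 0.71 in diestrus. The 4 highest TNF values in diestrus were those of dogs 122, 84, 30 and 6, at 5.89, 5.41, 5.25 and 5.14, all of which belong to the 6, while dogs 118 and 148 had TNF values of 4.87 and 4.83, near the diestrus median of 4.88. LTB, which lies next to TNF in the RefSeq order, ranged only from 6.24 to 6.65 over the same 21 dogs. This pattern was noticed in the data and was not tested.

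Mucometra dog 182 stood apart from its group in several members. It had the highest TNFRSF17 (6.09, where the next mucometra dog had 3.98), the highest TNFSF11 (6.74), the highest FAS (8.51) and the lowest TNFRSF19 (5.99) of the 15 mucometra dogs. Mucometra dog 92 had the highest TNF of that group, 6.74 where the next had 5.77.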
